A study of Mus musculus with 5 samples.

Results

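The levels of 10 well-known transcriptional targets of p53 were examined in mouse colonic tumors under chemotherapy, namely Cdkn1a, Ccng1, Mdm2, Zmat3, Bax, Bbc3, Trp53inp1, Phlda3, Sesn2 and Eda2r. These 10 genes were chosen by name, as textbook members of the p53 response, from the 22146 genes listed in at least 1 of the 5 libraries, and all 10 had counts in every library. Their levels were read in columnar epithelial, squamous, fibroblast, endothelial and immune cells.

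Each library was made by inDrop, a droplet method that tags each RNA molecule of a cell with a unique molecular identifier (UMI), from the colon of mice labelled WT. In 4 libraries the cells came from AOM/DSS tumors, which arise after the mutagen azoxymethane and colitis from dextran sodium sulfate and model inflammation-driven colorectal cancer, in mice given 5-FU and Irinotecan. 2 of these were taken at day 1 (replicates 1 and 2, the early treatment group), 1 at day 3 and 1 at day 6 (together the late treatment group). The fifth library came from untreated normal colon, dissociated so as to enrich stroma after the crypts were shaken off, and no untreated tumor was analysed here. The animals were of a mixed C57BL/6J;129 or a C57BL/6J background, with the background of each library not given in the sources used here, and the study describes the libraries of each treatment group as biological replicates. The methods give cycles of Irinotecan followed by 5-FU with harvest after the last cycle, whereas the results speak of days of treatment, so that the starting point of the day count is uncertain. The library structure was single index for day 3 and for the first day 1 replicate, and dual index for the others, and each structure was run on its own sequencing platform. The early and late groups thus held 1 library of each structure.

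p53 is a transcription factor that is stabilized by DNA damage, such as that caused by topoisomerase I inhibitors and fluoropyrimidines, and in the intestinal epithelium it drives both arrest and apoptosis after genotoxic injury. Its targets include a brake on the cell cycle (Cdkn1a, which encodes the kinase inhibitor p21), a negative feedback (Mdm2, the ubiquitin ligase that degrades p53) and pro-apoptotic members of the BCL2 family (Bax and Bbc3, the latter also called PUMA). Other targets restrain growth or metabolism, among them Phlda3, a repressor of AKT, and Sesn2, a sestrin that restrains mTORC1.

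p53 binds DNA as a tetramer through paired copies of a 10-base element, the p53 half-site. Promoter windows of 300 bases (250 before to 50 after the annotated start, RefSeq, build GRCm38.p6) were held by the reference table for 8 of the 10 genes, all but Trp53inp1 and Zmat3, in 11 windows. A half-site, matched by its consensus name in either orientation since it is its own reverse complement, lay in 4 of these 11 windows, against 8.36% of the 32851 windows of all genes. The 4 genes were Cdkn1a, Mdm2, Ccng1 and Bax, and their windows are shown with the half-site in capitals because they carry the element through which p53 acts. Cdkn1a alone held a pair of half-sites (13 or fewer bases apart), as did 0.0731% of all windows. Its half-sites began 73 and 51 bases before the start, with 12 bases between them, in chr17:29090729-29091028 (+ strand). The window at its other annotated start (chr17:29093519-29093818, + strand) held no half-site. The half-site began 186 bases before the start in Mdm2 (chr10:117710709-117711008, - strand), 185 in Ccng1 (chr11:40755237-40755536, - strand) and 201 in Bax (chr7:45466849-45467148, - strand). Phlda3 is shown beside them because it was the single gene of the 10 that passed a test, between squamous and columnar cells, and its window (chr1:135765835-135766134, + strand) held no half-site. Only exact matches were counted, so a near match, such as the tgacatgttc that directly follows the second Cdkn1a half-site, was not marked. A match of letters is a description and was not tested for binding.
Cdkn1a: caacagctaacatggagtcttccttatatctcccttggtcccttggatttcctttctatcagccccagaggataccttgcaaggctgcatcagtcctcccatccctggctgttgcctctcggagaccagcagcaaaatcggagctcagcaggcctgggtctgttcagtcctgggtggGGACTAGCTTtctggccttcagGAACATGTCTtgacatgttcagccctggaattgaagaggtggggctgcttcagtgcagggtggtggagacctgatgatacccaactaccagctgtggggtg
Mdm2: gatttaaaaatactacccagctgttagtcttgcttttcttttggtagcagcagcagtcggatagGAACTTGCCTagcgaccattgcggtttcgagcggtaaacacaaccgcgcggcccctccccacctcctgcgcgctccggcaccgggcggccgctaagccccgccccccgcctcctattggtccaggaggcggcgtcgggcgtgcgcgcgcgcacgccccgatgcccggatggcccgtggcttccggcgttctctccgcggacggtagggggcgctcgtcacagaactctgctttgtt
Ccng1: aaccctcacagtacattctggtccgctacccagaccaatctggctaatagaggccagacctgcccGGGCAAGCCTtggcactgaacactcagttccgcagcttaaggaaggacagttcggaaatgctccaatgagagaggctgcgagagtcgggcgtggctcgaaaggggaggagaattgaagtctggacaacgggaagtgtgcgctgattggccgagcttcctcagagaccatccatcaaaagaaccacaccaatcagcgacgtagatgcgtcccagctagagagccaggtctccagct
Bax: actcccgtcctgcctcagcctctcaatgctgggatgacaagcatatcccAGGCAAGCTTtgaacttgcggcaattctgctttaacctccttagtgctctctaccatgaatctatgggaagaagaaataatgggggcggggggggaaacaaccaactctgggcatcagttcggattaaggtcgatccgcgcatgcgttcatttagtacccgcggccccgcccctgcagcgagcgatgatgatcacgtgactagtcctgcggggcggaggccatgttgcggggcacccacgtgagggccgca
Phlda3: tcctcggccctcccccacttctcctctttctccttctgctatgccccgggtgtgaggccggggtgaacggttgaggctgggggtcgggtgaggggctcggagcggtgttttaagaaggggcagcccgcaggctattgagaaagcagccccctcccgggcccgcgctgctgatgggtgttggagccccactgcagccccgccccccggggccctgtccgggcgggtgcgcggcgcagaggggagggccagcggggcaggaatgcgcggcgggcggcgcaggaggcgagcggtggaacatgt

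The deposited matrices held 5132360 to 16904947 UMIs, and 748 to 2826 cells per library remained once those below 500 genes or above 15% mitochondrial UMIs were dropped, with medians of 2903 to 3601 UMIs per cell. Pairs of libraries shared 4 to 41 cell barcodes. Lists of 4 values below run in the order of the first and the second day 1 replicate, day 3 and day 6. Clusters were named from markers and built without the 10 genes, and gave 94, 390, 867 and 717 columnar cells, 55, 191, 288 and 730 squamous cells, 14, 39, 30 and 56 fibroblasts, 15, 98, 85 and 96 endothelial cells and 134, 576, 34 and 477 immune cells. Normal colon held 329, 0, 438, 69 and 148 cells of these classes. Some columnar clusters had more markers of another class than of their own among their 10 leading genes. They held 177, 855, 23 and 661 cells, or 65.3, 68.7, 2.58 and 48.0% of all columnar-named cells. They were kept out of the columnar class and are given apart. Few markers decided this: Prox1 in cluster 1, F3 in clusters 8 and 15, and Zg16 and Clca1 in cluster 0. Cluster 1 was also led by Wif1, Nkd1 and Dkk2. Different clusters held most columnar cells of day 1, day 3 and day 6. Free RNA was high in day 3: 8 columnar markers were found in its fibroblasts, endothelial and immune cells at medians of 60.9, 63.7 and 77.1% of their columnar level, against 16.9 to 57.1% in the day 1 libraries, 25.1 to 33.4% in day 6 and 3.53 to 4.51% in normal colon. In immune cells, neutrophils made up 50.7, 68.1, 85.3 and 5.03% of cells, and none in normal colon. The share of columnar markers times the columnar level of a gene gives the level that columnar free RNA alone would bring to another class, and it is given below as the free RNA level. It rests on the median of 8 markers whose shares differed, leaves out free RNA of squamous cells, and is a description. It was computed for fibroblasts, endothelial and immune cells only, and not for columnar or squamous cells. Levels are CPM, the UMIs of a gene per 1000000 UMIs of the class in a library, with exact 95% Poisson intervals, which cover counting error only. In sums over cells, fewer cells of a kind and less RNA per cell cannot be told apart.

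In columnar cells of the treated tumors, the 10 genes fell into 2 groups by time. Ccng1, Mdm2, Zmat3, Trp53inp1, Sesn2 and Eda2r stood higher in both day 1 libraries than at day 3 or day 6, while Cdkn1a, Bbc3 and Phlda3 stood highest at day 3 and Bax stayed high through day 3, and all 4 were lowest at day 6. The late libraries thus lay below both early libraries for 6 of 10 genes in columnar cells, against 31.9% of the 12082 genes tested. None of the 10 passed the test of late against early libraries in edgeR (0 of 10, against 0.00828% of all genes). With 2 libraries a group, a failed test does not show that a difference was small.

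Among the genes of cell cycle arrest, Cdkn1a stood at 934, 779, 1107 and 494 CPM in columnar cells and at 584 CPM in columnar cells of normal colon. Its day 3 level was the highest and its day 6 level the lowest, below that of normal colon, with 95% intervals of 478 to 510.1 in day 6 and 558 to 612 in normal colon. Ccng1, which encodes cyclin G1, stood at 149.5, 251, 53.5 and 71 CPM, against 39.8 CPM in normal colon. Here both late libraries lay below both early ones and all 4 lay above normal colon.

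Mdm2 stood at 81.3, 128, 51.3 and 54.8 CPM, and at 57.1 CPM in normal colon, so that the late libraries lay at the level of normal colon and the early ones above it. Zmat3, an RNA-binding zinc finger protein, stood at 135, 198, 86.1 and 15.3 CPM and at 19.3 CPM in normal colon. It was lower at day 3 than on day 1 and lowest at day 6, where its interval (12.6 to 18.4 CPM) overlapped that of normal colon (14.7 to 24.8 CPM).

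Of the genes of apoptosis, Bax, which encodes the pore-forming effector of mitochondria, stood at 233, 185, 209 and 47.6 CPM. The first 3 libraries lay above the 58.7 CPM of normal colon and day 6 lay below it. Bbc3 stood at 21.5, 17.2, 34 and 4.19 CPM and at 17.3 CPM in normal colon, where only day 3 had an interval clear of that of normal colon on the high side, and day 6 on the low side. Trp53inp1, a p53-induced nuclear protein that takes part in apoptosis and autophagy, stood at 52.6, 149, 15.3 and 10.6 CPM and at 21.8 CPM in normal colon. Both early libraries lay above normal colon and both late ones below it.

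Phlda3 stood at 152, 184, 237 and 38.2 CPM, against 3.21 CPM (10 counts, interval 1.54 to 5.90) in normal colon. All 4 treated libraries were thus above normal colon, by 47.3-, 57.2-, 73.9- and 11.9-fold. Sesn2 stood at 38.3, 50.2, 24.9 and 5.82 CPM and at 18.6 CPM in normal colon, with day 6 alone below it. Eda2r, a receptor of the tumor necrosis factor family for an isoform of ectodysplasin, stood at 29.9, 68.3, 6.47 and 0.541 CPM (25, 223, 27 and 4 counts), and at 0.963 CPM (3 counts) in normal colon. Its intervals ran from 19.4 to 44.1 CPM in day 1 replicate 1, 59.7 to 77.9 in day 1 replicate 2 and 4.27 to 9.42 in day 3 to 0.147 to 1.39 in day 6, and only the last overlapped normal colon (0.199 to 2.81).

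**Figure D1:**
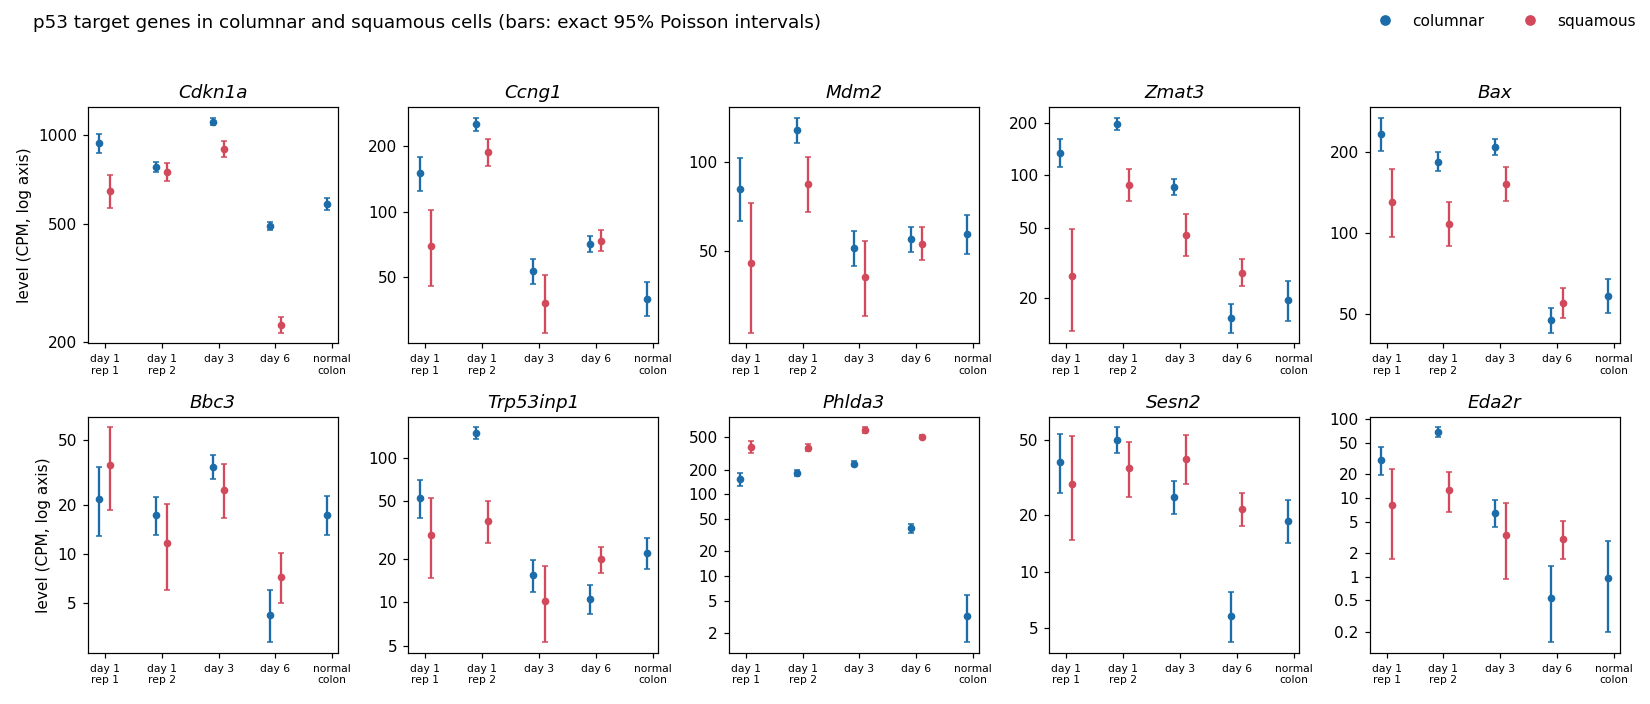
Level of each p53 target gene (CPM, log axis) in columnar and squamous cells of the 4 treated libraries and in columnar cells of normal colon, with exact 95% Poisson intervals as bars. Ccng1, Mdm2, Zmat3, Trp53inp1, Sesn2 and Eda2r were higher in columnar cells of both day 1 libraries than of the late ones, and Phlda3 was higher in squamous than in columnar cells of each library.

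The same comparison was read within each library structure. In the dual index libraries all 10 genes were lower at day 6 than in day 1 replicate 2 with intervals apart, against 48.1% of all genes tested, with the smallest ratio for Cdkn1a (1.58-fold) and ratios of 3.54-fold for Ccng1, 12.9-fold for Zmat3, 14.1-fold for Trp53inp1 and 126-fold for Eda2r. In the single index libraries 5 of 10 genes were lower at day 3 than in day 1 replicate 1 with intervals apart, against 16.1% of all genes: Mdm2 (1.59-fold), Ccng1 (2.80-fold), Trp53inp1 (3.43-fold), Zmat3 (1.57-fold) and Eda2r (4.62-fold). Cdkn1a and Phlda3 were higher there at day 3, by 1.19- and 1.56-fold, with intervals apart. The share of all genes that were higher in this pair was not computed.

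The columnar cells kept apart were read by themselves, since they held most columnar-named cells of day 1. Their Trp53inp1 stood at 169, 120.4, 0 and 30.6 CPM, their Eda2r at 56.1, 34.9, 7.36 and 2.55 CPM and their Zmat3 at 184, 126, 73.6 and 29.8 CPM, with both early libraries above both late ones for each, as for Mdm2, Ccng1 and Bax. Cdkn1a stood at 1258, 989.6, 1046 and 361 CPM and Bbc3 at 66.5, 12.4, 36.8 and 2.55 CPM in them, so that both were highest in day 1 replicate 1, unlike in the columnar class. When clusters were made coarser (Leiden resolution 0.5), which moved cells between these sets, Cdkn1a in columnar cells likewise stood highest in day 1 replicate 1 (1217 CPM, against 1099 at day 3), and its level in normal colon was 992 CPM. The day 3 peak of Cdkn1a and Bbc3 thus depended on which columnar cells were counted, whereas that of Phlda3 and the order of the 6 genes above did not at this resolution.

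In the edgeR test of columnar cells, 3 of the 10 genes had an unadjusted p under 0.05, against 779 of all 12082 genes. These were Ccng1, Trp53inp1 and Eda2r, picked for naming after their values were seen. DESeq2 called 2 lower, Eda2r and Trp53inp1, against 37 of the 12082 genes called. The count depended on day 3, and calls over all genes rose without it as well. Only 1 late library then remained, assumed to vary like the early ones, so sizes alone are given. The log2 changes in edgeR were -6.02 for Eda2r, -2.82 for Trp53inp1, -3.03 for Zmat3 and -2.52 for Sesn2. The median over the 10 genes was -1.77, beside -0.0943 over all genes.

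Squamous cells, which carry markers of stratified epithelium such as Krt5 and Trp63, were read by the same rule. The late libraries lay below both early ones for 2 of 10 genes, Trp53inp1 and Eda2r, against 20.9% of the 9813 genes tested, a share near the background. Trp53inp1 stood at 29.4, 36.5, 10.2 and 19.8 CPM and Eda2r at 8.02, 12.5, 3.40 and 3.04 CPM (3, 13, 4 and 14 counts). Neither gene reached in squamous cells of day 1 replicate 2 the level that it had in columnar cells of that library. Columnar free RNA was not measured in squamous cells. In that library columnar markers stood at medians of 27.8, 34.2 and 57.1% of their columnar level in fibroblasts, endothelial and immune cells. The squamous levels, and the order of Trp53inp1 and Eda2r, are thus not shown to be of squamous expression alone.

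Cdkn1a stood at 644, 751, 896 and 229 CPM in squamous cells, Bax at 131, 109, 153 and 55.2 CPM and Bbc3 at 34.8, 11.5, 24.6 and 7.17 CPM. Cdkn1a and Bax were highest at day 3 and lowest at day 6, while Bbc3 was highest in day 1 replicate 1. Ccng1 stood at 69.5, 187, 38.2 and 73.7 CPM, Mdm2 at 45.5, 84.6, 40.8 and 53 CPM and Zmat3 at 26.7, 88.5, 45.9 and 27.8 CPM. For these 3 genes day 1 replicate 2 was highest, and the other day 1 library lay within the range of the late ones or below it. Sesn2 stood at 29.4, 35.6, 39.9 and 21.5 CPM, with intervals of 29.3 to 53.1 at day 3 and 17.5 to 26.2 at day 6. Within the dual index libraries, 7 of 10 genes were lower at day 6 with intervals apart (all but Bbc3, Phlda3 and Sesn2), against 15.1% of all genes. Within the single index libraries, 0 were lower and 2 higher at day 3 with intervals apart (Cdkn1a and Phlda3). The share of all genes was not computed for that pair. The edgeR test called 0 of the 9 genes tested, against 0% of all genes, and none had an unadjusted p under 0.05, while DESeq2 also called 0.

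Phlda3 was higher in squamous than in columnar cells of each treated library. It stood at 379.7, 373, 613 and 506 CPM in squamous cells, and in each library this was above the columnar level of the same library, by 2.50-, 2.03-, 2.58- and 13.3-fold. Unlike every other gene of the 10 in squamous cells, both its late levels lay above both early ones, with intervals apart within each library structure, although this difference did not pass the test of late against early. The libraries filled different squamous clusters, with 127 of 191 cells of the second day 1 replicate in cluster 22, 284 of 288 of day 3 in cluster 10 and, of 730 cells of day 6, 306, 279 and 143 in clusters 7, 11 and 20. In the first day 1 replicate, 30 of 55 lay in cluster 10. Squamous cells stood higher in all 4 libraries for 1 of the 10 genes, against 14.8% of the 12344 genes tested, and lower in all 4 for Cdkn1a and Mdm2 (2 of 10, against 21% of all genes). In the edgeR test with the library as a block, 1 of 10 genes passed, Phlda3, against 15.7% of all genes, with a log2 difference (squamous minus columnar) of 1.89 (SE 0.39, adjusted p = 0.0113). DESeq2 also called Phlda3 alone. Of the 15 columnar and squamous clusters, each of the 5 squamous ones had more Phlda3 than each of the 6 columnar ones and the 4 kept apart. Without day 6, edgeR also called Eda2r, Trp53inp1 and Zmat3 lower in squamous cells (4 of 10 called, against 1210 of 10462 genes).

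**Figure D2:**
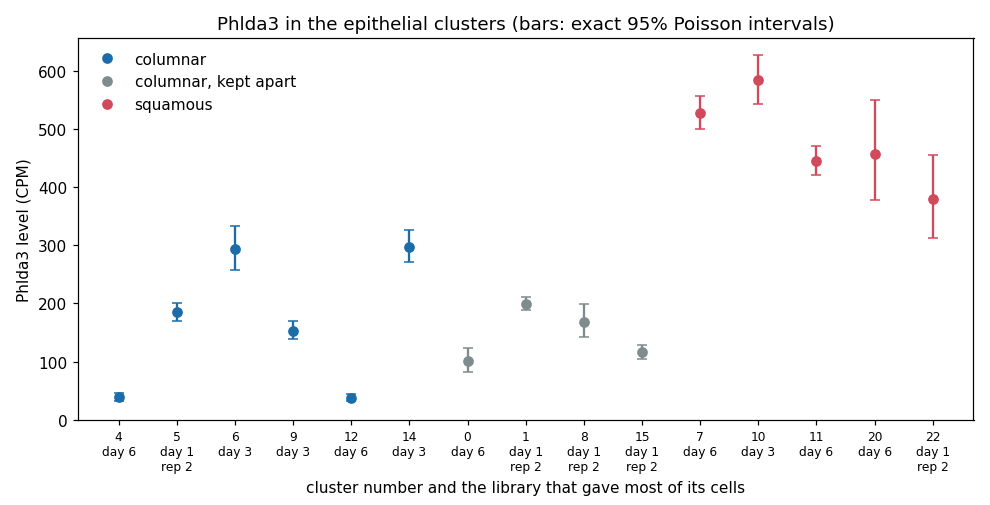
Level of Phlda3 (CPM, linear axis from 0) in each columnar and squamous cluster of the treated tumors, with the library that gave most of its cells beneath the cluster number and exact 95% Poisson intervals as bars. Squamous clusters (379 to 584 CPM) lay above all columnar clusters (38 to 298 CPM), and the 2 clusters of the columnar class made up mostly of day 6 cells lay lowest.

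Whether the change from early to late differed between squamous and columnar cells was tested as an interaction in edgeR. None of the 10 genes passed (0 of 10, against 0% of all 12344 genes), and DESeq2 called 0. In edgeR 3 had an unadjusted p under 0.05 (Trp53inp1, Sesn2 and Eda2r, named after their values were seen), against 604 of all genes. Without day 3, 1 late library remained, and the log2 interaction of Eda2r was 4.25.

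Fibroblasts were few in the treated tumors, and all genes but Cdkn1a and Phlda3 had at most 38 counts a library there. Cdkn1a stood at 611, 964, 1268 and 414 CPM in fibroblasts of the treated libraries and at 234 CPM in those of normal colon, below all 4. Phlda3 stood at 204, 189, 368 and 117 CPM and at 155 CPM in normal colon, a level within the treated range and unlike that of columnar cells of normal colon. Bax stood at 163, 109, 211 and 49.4 CPM and at 69.5 CPM in normal colon. Mdm2 stood at 81.4, 159.9, 36.8 and 43.2 CPM (4, 38, 4 and 7 counts), and Ccng1 at 81.4, 101, 18.4 and 67.9 CPM. These 2 of 10 genes had both late libraries below both early ones, against 24% of the 3333 genes tested. Their free RNA levels were 26, 35.7, 31.2 and 13.8 CPM for Mdm2 and 47.9, 69.8, 32.5 and 17.9 CPM for Ccng1, so that Ccng1 was below its free RNA level at day 3 and had the same order in free RNA. The rest stood at 0 to 102 CPM in the treated libraries, with Zmat3 at 102, 54.7, 73.5 and 18.5 CPM, Sesn2 at 61.1, 21, 27.6 and 18.5 CPM, Trp53inp1 at 0, 37.9, 9.19 and 24.7 CPM and Bbc3 at 20.4, 8.42, 27.6 and 0 CPM. Eda2r had 1 count in all treated fibroblasts and 4 counts (3.27 CPM) in normal colon, and 0 counts allow a level of up to 61.1, 27.6 and 18.5 CPM (3 counts) in day 1 replicate 1, day 3 and day 6. Only 5 of the 10 genes passed the filter on low counts, and edgeR called 0 of 5, against 0% of all genes. Of the 5, 1 (Mdm2) had an unadjusted p under 0.05, against 269 of all 3333 genes, and DESeq2 called 0.

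Endothelial cells, of which 20, 37.8, 30.6 and 85.4% were lymphatic, had Eda2r at 47.4, 30.4, 9.05 and 7.29 CPM (7, 16, 4 and 2 counts), with 0 counts in normal colon, which allow up to 12.8 CPM. Both early libraries lay above both late ones for 4 of 10 genes (Mdm2, Ccng1, Trp53inp1 and Eda2r), against 29.7% of the 6962 genes tested. Mdm2 stood at 88.1, 98.7, 47.5 and 43.7 CPM and Ccng1 at 40.6, 118, 38.5 and 36.5 CPM. Trp53inp1 stood at 27.1, 62.6, 6.79 and 10.9 CPM. In the second day 1 replicate the free RNA levels of Ccng1, Trp53inp1 and Eda2r were 85.9, 50.9 and 23.4 CPM, most of the measured level, so that the order of these 3 genes is not shown to be one of endothelial expression. For Mdm2 that level was 43.9 CPM. In contrast, Cdkn1a stood at 650.4, 579, 1222 and 437 CPM and was highest at day 3, as were Bax (224, 121, 258 and 91.1 CPM) and Phlda3 (230.3, 140.4, 296 and 80.2 CPM). The columnar cells of day 3 had 1107, 209 and 237 CPM of these 3 genes, a library whose endothelial cells also held columnar markers at a median of 63.7% of the columnar level. Their free RNA levels at day 3 were 705, 133 and 151 CPM, a large part of each measured level. In normal colon they stood at 921, 217 and 29.8 CPM, of which only the last lay below all 4 treated libraries. Zmat3 stood at 54.2, 62.6, 54.3 and 25.5 CPM, with 0 counts in normal colon, and with free RNA levels of 22.9, 67.6, 54.8 and 5.10 CPM it was not above free RNA in the second day 1 replicate or at day 3. Sesn2 stood at 20.3, 30.4, 29.4 and 25.5 CPM and Bbc3 at 13.5, 13.3, 29.4 and 7.29 CPM. Of the 8 genes that passed the filter, edgeR called 0 (against 0% of all genes), and DESeq2 called 0. In edgeR 1 (Eda2r) had an unadjusted p under 0.05, against 683 of all 6962 genes.

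In immune cells, Cdkn1a stood at 1461, 1113, 1097 and 460.3 CPM, against 353 CPM in normal colon. The late libraries lay below both early ones for Cdkn1a, Mdm2, Sesn2 and Eda2r, 4 of 10 genes against 22.9% of the 10160 genes tested. Mdm2 stood at 144, 139.9, 64.5 and 76.2 CPM, Sesn2 at 58.7, 89.5, 43 and 13.8 CPM and Eda2r at 3.79, 7.59, 0 and 0 CPM (2, 14, 0 and 0 counts). In the dual index libraries 7 of 10 genes were lower at day 6 than in day 1 replicate 2 with intervals apart, against 24.3% of all genes, beside a neutrophil share of 68.1% in day 1 replicate 2 and 5.03% in day 6. The 3 that were not were Bbc3, Phlda3 and Trp53inp1. In the single index libraries 1 gene was lower and 1 higher at day 3 than in day 1 replicate 1 with intervals apart. The share of all genes was not computed for that pair. Phlda3 stood at 127, 74.8, 301 and 52.8 CPM and Bbc3 at 32.2, 8.68, 21.5 and 5.40 CPM, both on few counts in day 3 (28 and 2). Ccng1 stood at 66.3, 106, 75.3 and 64.8 CPM, Bax at 231, 142, 215 and 69.6 CPM and Zmat3 at 56.8, 70.5, 75.3 and 15 CPM. The edgeR test called 0 of the 9 genes tested, against 0.00984% of all genes, and DESeq2 called 0. In edgeR 1 (Sesn2) had an unadjusted p under 0.05, against 691 of all 10160 genes. Without day 3, which held 34 immune cells, 1 late library remained. The log2 changes in edgeR were then -2.25 for Sesn2 and -1.90 for Zmat3, and calls over all genes rose as well. In the second day 1 replicate, however, Zmat3, Ccng1, Phlda3, Bbc3 and Eda2r lay below their free RNA levels of 113, 144, 105, 9.81 and 39 CPM, and are not shown to be immune expression there. Cdkn1a, Mdm2 and Sesn2 lay above theirs (445, 73.4 and 28.7 CPM).

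Within immune cell types, where neutrophil shares no longer differ, macrophages had Cdkn1a at 2035 and 1681 CPM in the day 1 libraries, 846 in day 6 and 659 in normal colon. Their Mdm2 stood at 211 and 197 CPM in the day 1 libraries, 87.9 in day 6 and 84.6 in normal colon. Both genes had higher levels in the day 1 libraries than at day 6, without neutrophils in the sum. In the edgeR fit on macrophages alone, day 3 was left out and only day 6 remained late, assumed to vary like the early libraries. Sizes alone are thus given. Over the 8 genes tested, the median log2 change from early to late was -1.07, beside -0.0265 over all genes. Between treated tumors and normal colon the median log2 difference was 0.62, beside 0.0772 over all genes. Trp53inp1 was high in plasma cells, the antibody-secreting B lineage, with 397, 721 and 379 CPM in day 1 replicate 1, day 1 replicate 2 and day 6 and 717 in normal colon, against 23.4, 36.7, 13.9 and 33.1 CPM in macrophages of the same libraries. Its level in the immune class as a whole, 94.7, 131, 21.5 and 158 CPM and 316 CPM in normal colon, stood beside plasma cell numbers of 14, 18, 0 and 146 of 134, 576, 34 and 477 immune cells, and 34 of 148 in normal colon, whose part was not tested.

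**Figure D3:**
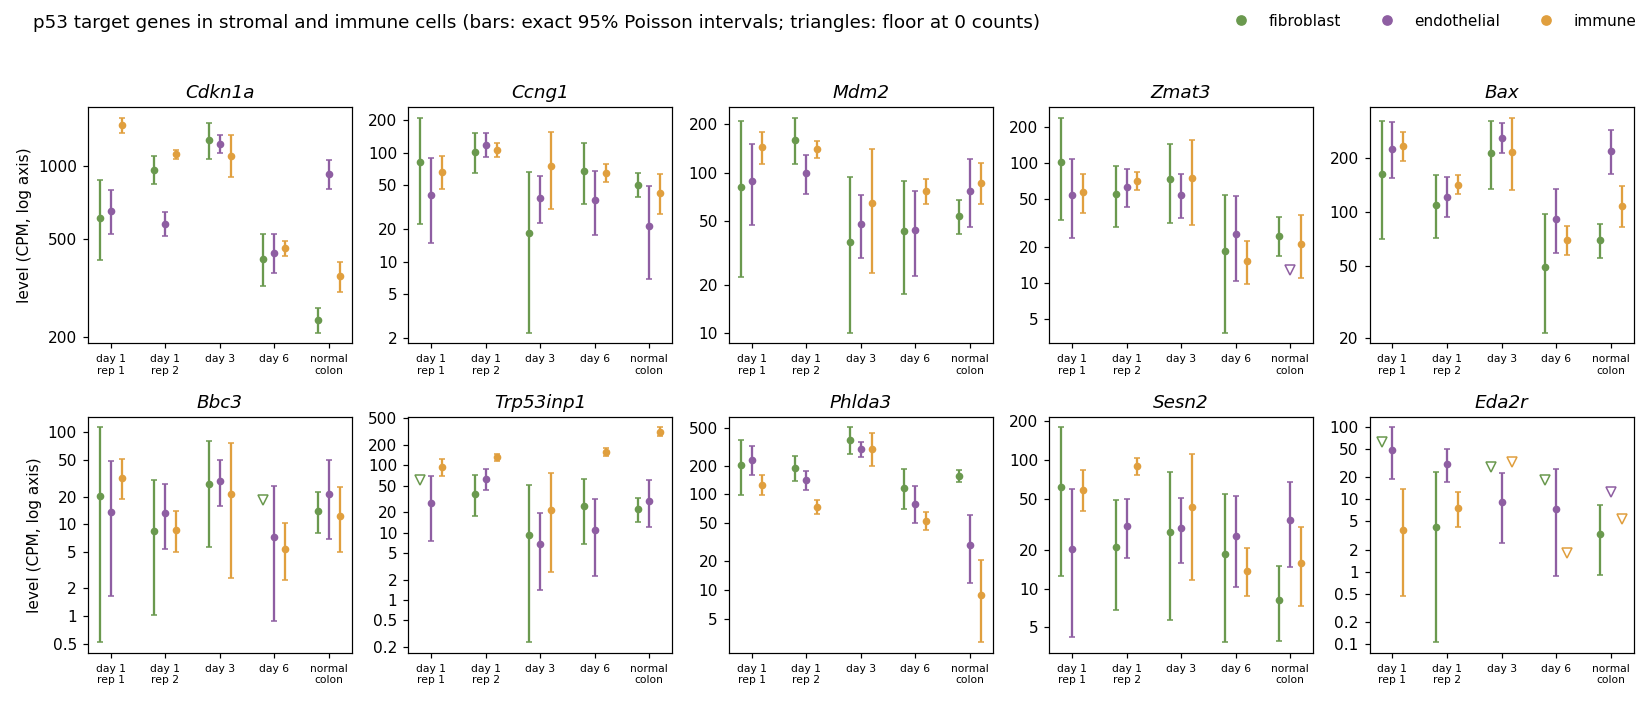
Level of each p53 target gene (CPM, log axis) in fibroblasts, endothelial and immune cells of the 5 libraries, with exact 95% Poisson intervals as bars and open triangles at the level of 3 counts where the count was 0. Intervals were wide in fibroblasts, Eda2r had counts in endothelial cells of all 4 treated libraries, and Trp53inp1 was higher in immune cells of normal colon than of the treated libraries.

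Normal colon served as the untreated reference, in 1 library, so that tumor, drug and dissociation cannot be told apart and the lone library was assumed to vary like the treated ones. In columnar cells all 4 treated libraries lay above normal colon for 2 of 10 genes, Ccng1 and Phlda3, against 26.6% of the 13405 genes tested. The numbers were 2 of 10 in fibroblasts (Cdkn1a and Sesn2, against 26.1% of 5890 genes), 4 of 10 in endothelial cells (Ccng1, Zmat3, Phlda3 and Eda2r, against 31.5% of 7909 genes) and 3 of 10 in immune cells (Cdkn1a, Ccng1 and Phlda3, against 33.8% of 9855 genes). Free RNA was far lower in normal colon. In immune cells of the second day 1 replicate, Ccng1 (106 CPM) and Phlda3 (74.8 CPM) lay below their free RNA levels of 144 and 105 CPM. Immune Cdkn1a at day 3 stood at 1097 CPM with a free RNA level of 854 CPM, beside 353 and 26.3 CPM in normal colon. The order of these 3 genes over all 4 libraries is thus not shown to be one of immune expression. The free RNA level of Zmat3 in endothelial cells of normal colon was 0.68 CPM, against 67.6 and 54.8 CPM in the second day 1 replicate and day 3. Neither the order of Zmat3 nor its difference without day 6, given below, is thus shown to be one of endothelial expression. Endothelial Ccng1 stood at 118 and 38.5 CPM in the second day 1 replicate and day 3, with free RNA levels of 85.9 and 34 CPM. In normal colon these were 21.3 and 1.41 CPM. Fibroblast Sesn2 stood at 21 CPM in the second day 1 replicate with a free RNA level of 14 CPM, beside 8.18 and 0.73 CPM in normal colon. Neither order is thus shown to be endothelial or fibroblast expression. Free RNA of squamous cells, which normal colon lacked, is not in these levels. Squamous markers stood in endothelial and immune cells at medians of 18.9 and 18.4% of their squamous level at day 3. At day 6 these medians were 13.3 and 11.7%. Squamous Phlda3 stood at 613 CPM at day 3 and 506 at day 6. The differences of Phlda3 in these 2 classes are thus not shown to be endothelial or immune expression. The edgeR test of the mean of early and late against normal colon called 0 of 10 genes in columnar cells, 0 of 6 in fibroblasts, 0 of 8 in endothelial and 0 of 9 in immune cells, against 2.03, 4.63, 1.44 and 2.51% of all genes. An unadjusted p under 0.05 was reached by Phlda3 and Eda2r in columnar, no gene in fibroblasts, Phlda3 and Zmat3 in endothelial and Phlda3 and Trp53inp1 in immune cells. Of all genes, 1761 of 13405, 884 of 5890, 1077 of 7909 and 1451 of 9855 reached it in these classes. Phlda3 stood at 8.82 CPM (5 counts) in immune cells of normal colon. DESeq2 called Phlda3 higher in columnar cells and 0 genes elsewhere. Calls here depended on day 6 and day 3, and calls over all genes in these 3 classes rose without either as well. Only 1 late library then remained, so sizes alone are given. Without day 6, the log2 differences in edgeR were 5.75 for Phlda3, 2.44 for Zmat3 and 3.97 for Eda2r in columnar cells. They were 2.78 for Phlda3 and 7.28 for Zmat3 in endothelial cells, and 3.91 for Phlda3 and -3.04 for Trp53inp1 in immune cells. Without day 3 they were 4.49 for Phlda3 in columnar cells, and 2.85 for Phlda3 and -1.42 for Trp53inp1 in immune cells.

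Dissociation stress genes moved with the reference. In normal colon 13 immediate early and heat shock genes summed to 15752 CPM in columnar cells, 29050.1 in fibroblasts, 25276 in endothelial and 14322 in immune cells, against 1196 to 6033 CPM in the treated libraries, and edgeR called 10, 12, 10 and 6 of the 13 lower in treated tumors. Among them in edgeR was Atf3, a stress-induced transcription factor, at a log2 difference (treated minus normal) of -6.47 (SE 0.62, adjusted p = 0.0012) in columnar cells. Of 34 other p53 targets, 4 were lower and 0 higher in treated columnar cells: Btg2, an antiproliferative gene, at -4.19 (SE 0.55, adjusted p = 0.0048), the stress cytokine Gdf15 at -5.81 (SE 0.79, adjusted p = 0.00565), the kinase Plk3 at -4.32 (SE 0.60, adjusted p = 0.00615) and Pmaip1, the pro-apoptotic NOXA, at -3.59 (SE 0.71, adjusted p = 0.0332), all by edgeR. Each of these 5 calls was lost without the second day 1 replicate, and those of Btg2, Gdf15 and Pmaip1 also without the first. Only 1 early library then remained, and calls over all genes fell as well, so that the loss is not particular to these genes. In immune cells 1 was higher and 2 lower, of 30 tested. In fibroblasts and endothelial cells, with 16 and 25 tested, 0 were higher and 1 lower, Btg2 in both. The part of dissociation in these values was not tested.

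p53 itself and its regulators were read beside the targets. Trp53 stood at 73, 75.7, 60.7 and 39 CPM in columnar cells and 34 CPM in those of normal colon, with day 6 lowest among the treated tumors. In squamous cells it stood at 120.3, 78.8, 72.2 and 95.9 CPM. Mdm4, which restrains p53 together with Mdm2, stood at 61, 100.5, 42.2 and 32.9 CPM in columnar cells and 36.9 CPM in normal colon. Both late libraries lay below both early ones for Trp53 and Mdm4 in columnar cells, as for 31.9% of all genes. None of the 10 regulators tested of 13 passed edgeR's test between early and late columnar cells, with 0 at an unadjusted p under 0.05 and 0 called by DESeq2, and with a median log2 change of -0.75 beside -0.0024 over all genes. Between squamous and columnar cells 1 of 12 passed in edgeR, against 15.7% of all genes, namely Trp73, a p53 relative, at a log2 difference of 3.68 (SE 0.52, adjusted p = 0.00222).

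Of the 34 other p53 targets, 34, 31, 9, 17 and 30 could be tested in columnar, squamous, fibroblast, endothelial and immune cells. Between early and late libraries edgeR called 0 of those tested in each of the 5 classes, against at most 0.00984% of all genes. An unadjusted p under 0.05 in edgeR was reached by 5 of 34 in columnar cells, against 779 of all 12082 genes. DESeq2 called 0 there. In columnar cells 23 of the 34 had a negative log2 change and 11 a positive one, with a median of -0.36, beside -0.94 for the 10 genes and -0.0024 for all genes tested. Between squamous and columnar cells 5 were higher and 1 lower by edgeR, 6 of 34 in all, a share near the 15.7% of all genes called and so no result about p53 targets as a group. By edgeR, Ak1, an adenylate kinase, was higher in squamous cells at a log2 difference of 2.77 (SE 0.33, adjusted p = 0.000936), Perp, a tetraspan protein of desmosomes that is also a target of p63, at 1.61 (SE 0.34, adjusted p = 0.0137), and the receptor kinase Epha2 at 1.57 (SE 0.34, adjusted p = 0.0146), while Apaf1, the scaffold of the apoptosome, was lower at -1.41 (SE 0.26, adjusted p = 0.00743). Without the first day 1 replicate Perp and Epha2 lost their calls (adjusted p of 0.0973 and 0.0699 in edgeR). Calls over all genes fell as well, from 1940 of 12344 to 895 of 12896.

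Cell cycle genes that p53 represses through p21 stood higher late than early in columnar cells. The 14 genes, among them Mki67, Top2a and Ccnb1, summed to 782, 420.4, 1343 and 993 CPM in columnar cells, against 499 CPM in normal colon, and day 1 replicate 2 was lowest. Day 1 replicate 1 lay between it and the late libraries. In squamous cells they summed to 1299.5, 505, 1344 and 933 CPM, again with day 1 replicate 2 lowest, whereas day 1 replicate 1 lay near day 3. All 14 had a positive log2 change from early to late in columnar cells (median 1.24), and edgeR called 0 while DESeq2 called 0. An unadjusted p under 0.05 was reached by 7 of 14 in edgeR, against 779 of all 12082 genes.

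**Figure D4:**
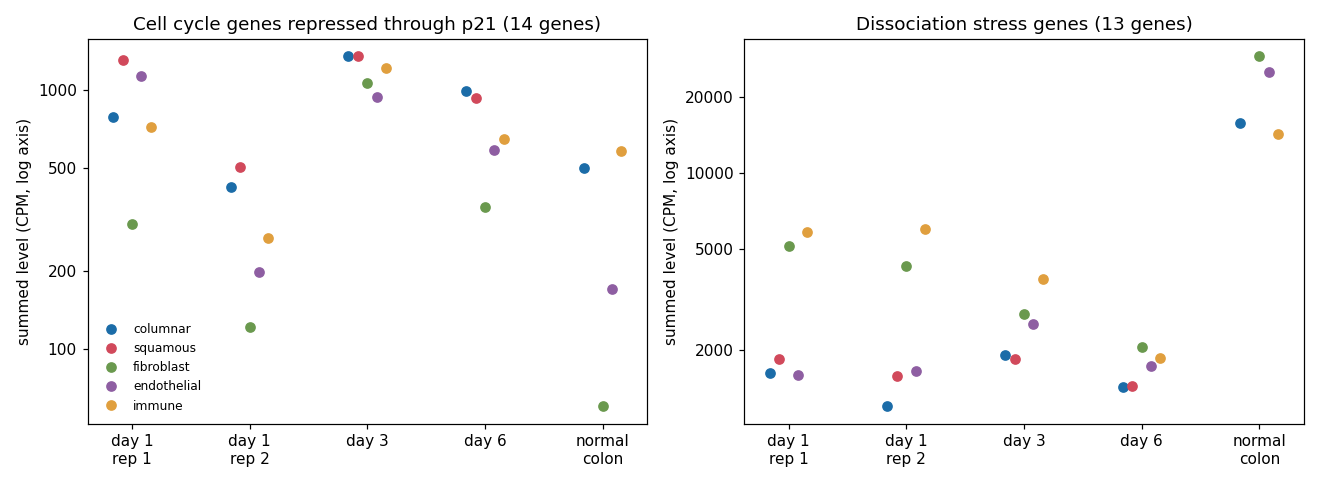
Summed levels (CPM, log axes) of 14 cell cycle genes repressed through p21 and of 13 dissociation stress genes in each class and library, 1 point per class. Cell cycle genes were lowest among the treated tumors in day 1 replicate 2 in all 5 classes, and dissociation stress genes were highest in normal colon in all 4 classes found there.

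Over the 20 class sums of the treated libraries, the 5 genes whose pattern was most like the mean of the 10 p53 targets were Adcy8 (Pearson r = 0.81), Spock2 (0.81), Osbpl10 (0.81), Rnase1 (0.80) and Smoc2 (0.80), of 4367 genes compared on log2(CPM + 10). Of the 10 genes themselves, Zmat3 followed the mean of the others most closely (r = 0.82) and Phlda3 least (r = 0.10). Each gene was left out of the mean with which it was compared. The sums share libraries and free RNA, and these values are descriptions.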

How the data were processed

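Single-cell RNA was measured by inDrop in 5 mouse colon libraries. The deposited values are raw UMI counts per gene and cell, which the authors made by aligning reads with dropEst to GRCm38 and did not normalize or batch correct. Cells below 500 genes or above 15% mitochondrial counts were removed, as in the study's methods. Treated and normal cells were clustered separately (2000 variable genes without the reported genes, 20 components, 20 neighbours, leidenalg 0.10.2 at resolution 1). Clusters were named from fixed markers with a fold of 2. Those left unnamed were called columnar or squamous by a fold of 1.25 over non-epithelial cells, as was every columnar cluster. Names are thus rebuilt and may differ from the study's. Scrublet (scanpy 1.11.5) called 0 to 7 doublets a library, which is too few to have worked, so none were removed. Counts were summed per library and class (10 cells or more) and tested with edgeR 4.0.16 (quasi-likelihood, filterByExpr, TMM, Benjamini-Hochberg over all genes tested, threshold 0.05), with DESeq2 1.42.0 as an alternative, in R 4.3.3, and the scripts were tested on simulated data. Early meant day 1, late days 3 and 6, after the study. Alternatives also changed scaling, filter, resolution, doublets, cell sets, day coding, library structure, immune cells (macrophages only) and libraries. The 10 genes and all lists were chosen with earlier results of these data known. Genes other than the 10 and Trp53 and Mdm4 are named with a fold only if called, at most 4 per list with the lowest adjusted p. The study calls the treated libraries biological replicates and does not name their animals, so p-values measure the spread between libraries.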

Additional observations from a re-analysis of the deposited data

How the results depend on the processing

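Without replicates removed, the number of the 10 genes called changed under 4 settings. With DESeq2 it was 2 (lower) instead of 0 for late against early columnar cells and 1 (higher) instead of 0 for treated against normal columnar cells. Without the filter on low counts it was 2 for late against early columnar cells, 2 instead of 1 for squamous against columnar cells (Phlda3 higher, Zmat3 lower), and 2, 1 and 1 for treated against normal columnar, endothelial and immune cells. With day as a number it was 1 (Eda2r) in columnar cells, and with the highest doublet scores removed it was 1 (Phlda3) for treated against normal columnar cells. Leaving out 1 library gave 0 to 4 for late against early columnar cells, 0 to 2 in immune cells, 1 to 4 for squamous against columnar cells, 0 to 1 for the interaction, and 0 to 3, 0 to 2 and 0 to 2 for treated against normal columnar, endothelial and immune cells. Phlda3 was higher in squamous cells in all 12 alternatives of its test, at a log2 difference of 1.36 to 2.09 and adjusted p up to 0.0472 by edgeR or DESeq2. Adding the columnar clusters kept apart was chosen after seeing the data and changed no call of the 10 genes. A fit paired by library structure, with structure as a block and 1 residual degree of freedom, also called 0 of the genes between early and late in each of the 5 classes. In columnar cells 5 instead of 3 had an unadjusted p under 0.05 in that edgeR fit, against 926 of all 12082 genes. Of 50 columnar levels, 17 left their main 95% interval at Leiden resolution 0.5, 11 at resolution 2 and 13 as a mean over cells. Depth limits fibroblasts most, where only 5 genes could be tested. For late against early columnar cells, calls over all genes rose as well, from 1 of 12082 to 37 with DESeq2. They were 59 with day as a number and 216 of 19322 without the filter on low counts. The causes of these changes were not tested.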

Other observations

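The p53 targets were also read in secretory and lymphoid cells, which the comparisons above do not use. Paneth-like cells, here secretory cells led by Lyz1 and Defa genes together with the goblet genes Muc2 and Tff3, had Cdkn1a at 1098, 756 and 867 CPM in the first and the second day 1 replicate and at day 3. Their Mdm2 stood at 69.3, 67.4 and 24.6 CPM and their Trp53inp1 at 53.5, 83.1 and 12.3 CPM, both lowest at day 3. Day 6 had too few of these cells for a level.

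T cells of the second day 1 replicate had Cdkn1a at 590.0 CPM, those of day 6 at 271 and those of normal colon at 179 CPM, over 26, 153 and 15 cells. Neutrophils, absent from normal colon, had Sesn2 at 114, 134, 39.5 and 77.1 CPM in the 4 treated libraries, highest on day 1 as in the immune class as a whole.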
